A study of Mus musculus with 8 samples.

Results

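The 9 inflammatory chemokine receptor genes Ccr1, Ccr2, Ccr3, Ccr4, Ccr6, Ccr8, Cxcr3, Cxcr4 and Cxcr6 were picked by symbol out of 38406 genes, and all 9 had counts in every library. They were measured by RNA sequencing of Tregs (regulatory T cells, a CD4 lineage that expresses Foxp3 and restrains immune responses) sorted from spleen and from injured muscle of male C57BL/6 mice. Young mice were 2 months old and aged mice older than 6 months. In every group, spleen included, the mice had received 0.9 µg of cardiotoxin, a venom toxin that destroys muscle fibres, into each of the tibialis anterior, quadriceps and gastrocnemius muscles, and tissues were taken 4 days later. No transgene or Cre is named, and there was no uninjured group, so each tissue difference is a difference in injured mice. Each of the 4 groups (young spleen, aged spleen, young muscle, aged muscle) had 2 libraries of 1500 double-sorted cells. The series calls them biological duplicates without saying whether mice were pooled or separate, and every p-value rests on the spread between duplicates, which may be technical.

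Chemokine receptors are 7-pass membrane proteins coupled to inhibitory G proteins that steer cells along gradients of small secreted proteins, the chemokines. The inflammatory receptors follow chemokines made at sites of damage or infection. In T cells they are typical of activated and memory cells, whereas the lymph node receptor Ccr7 is typical of naive cells. Several of them are also carried by monocytes, macrophages, eosinophils or neutrophils, which makes markers of those cells relevant in a sort from injured muscle.

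The libraries held 1969982 to 4008622 counts. The Treg and T cell markers were present in every library, Cd4 for instance at 330 ± 42 CPM in aged muscle, its lowest group (SD, n = 2; CPM are counts per 1000000 counts of the scaled library), while Foxp3 was read at 20.1 ± 6.6 CPM in young spleen and 33 ± 12 CPM in young muscle. Replicate libraries correlated with a Spearman coefficient of 0.893 in young muscle and 0.965 in young spleen, and their counts differed by more than sampling noise (chi-square per gene of 3.56 to 8.39). Young muscle replicate 1 stood apart in transcripts of myeloid cells. Its 21 myeloid markers summed to 1008 CPM, against 249 CPM in young muscle replicate 2, 228 and 237 CPM in aged muscle and 75.2 to 160 CPM in spleen. The complement gene C1qa, made by macrophages, had 275 counts in that library and 0 in its replicate. It also stood apart in stromal transcripts, with 374 against 30 counts of the collagen gene Col1a1, which had 3 to 13 counts in spleen libraries. Its 15 muscle, stromal and endothelial markers summed to 564 CPM, against 258 CPM in replicate 2. The sum was 188 and 225 CPM in aged muscle and 159 to 356 CPM in spleen. Outside young muscle replicate 1 most of this sum was Pecam1, at 146 to 344 CPM in spleen and 119 to 205 CPM in muscle. Young muscle replicate 2 correlated more closely with both aged muscle libraries (0.921 and 0.906) than with its own replicate. Results of Ccr1, Ccr2, Ccr3 and Cxcr6 that rest on young muscle are therefore also given without young muscle replicate 1.

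On chromosome 9 lie 6 of the members. Among them, Cxcr6, Ccr1, Ccr3 and Ccr2 sit among 9 protein-coding genes in a stretch of 435.1 kb, from Ccr9 to Ccr2 (chromosome 9, 123678439 to 124113557, GRCm38). The sequences around their transcription starts are shown because these 4 neighbours had the largest muscle-to-spleen differences among the members. Each line runs from 250 bases before the start to 50 after it, on the gene's own strand, and the capitals mark matches to the motifs listed after them.
Ccr1: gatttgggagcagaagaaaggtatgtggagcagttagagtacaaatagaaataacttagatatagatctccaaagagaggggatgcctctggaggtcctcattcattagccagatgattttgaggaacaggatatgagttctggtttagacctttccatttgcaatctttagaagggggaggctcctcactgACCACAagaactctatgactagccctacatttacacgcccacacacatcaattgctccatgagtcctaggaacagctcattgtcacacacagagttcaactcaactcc
Ccr2: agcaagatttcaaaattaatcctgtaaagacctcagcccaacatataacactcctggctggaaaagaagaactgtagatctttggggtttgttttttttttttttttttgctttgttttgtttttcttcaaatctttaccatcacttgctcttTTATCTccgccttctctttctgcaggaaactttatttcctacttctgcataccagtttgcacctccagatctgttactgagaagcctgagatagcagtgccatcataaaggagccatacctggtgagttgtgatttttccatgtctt
Ccr3: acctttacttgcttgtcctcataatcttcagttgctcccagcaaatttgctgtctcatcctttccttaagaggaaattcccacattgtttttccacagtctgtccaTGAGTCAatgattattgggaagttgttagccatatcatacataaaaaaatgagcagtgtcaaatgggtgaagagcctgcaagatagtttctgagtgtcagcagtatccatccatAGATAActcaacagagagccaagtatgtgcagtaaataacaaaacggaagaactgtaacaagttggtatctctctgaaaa
Cxcr6: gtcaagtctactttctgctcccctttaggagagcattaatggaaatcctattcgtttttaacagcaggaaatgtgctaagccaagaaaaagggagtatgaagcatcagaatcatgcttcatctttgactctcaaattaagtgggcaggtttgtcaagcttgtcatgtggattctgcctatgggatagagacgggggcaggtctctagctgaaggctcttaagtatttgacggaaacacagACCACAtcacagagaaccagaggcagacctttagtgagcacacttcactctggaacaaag
They are RefSeq sequences on GRCm38.p6, at chr9:123968643-123968942 (minus strand), chr9:124101933-124102232, chr9:124021721-124022020 and chr9:123806227-123806526 (plus strand). Both strands were searched for the AP-1 motif TGANTCA, the STAT motif TTCNNNGAA and the T-box motif GGTGTGA. They were also searched for the letters AGATAA, bound by GATA factors, for the Runx motif TGTGGT and for the interferon response motif ISRE, and no 2 matches overlapped in these 4 windows. The Ccr3 window held 1 AP-1 match, 144 bases before the start, and 1 GATA match, 30 bases before it. The Ccr2 window held 1 GATA match, 97 bases before the RefSeq start. In GENCODE M21 the Ccr2 gene begins further upstream, at 124101950, so by that annotation this match lies after the start. The windows of Ccr1 and Cxcr6 held 1 Runx match each, 58 and 10 bases before the start. Among 32851 windows of the same length, 7.81% held the AP-1 motif, 11.2% the GATA motif and 16.8% the Runx motif. STAT, T-box and interferon response motifs were in 8.3%, 3.98% and 3.44% of windows and in none of these 4.

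**Figure D1:**
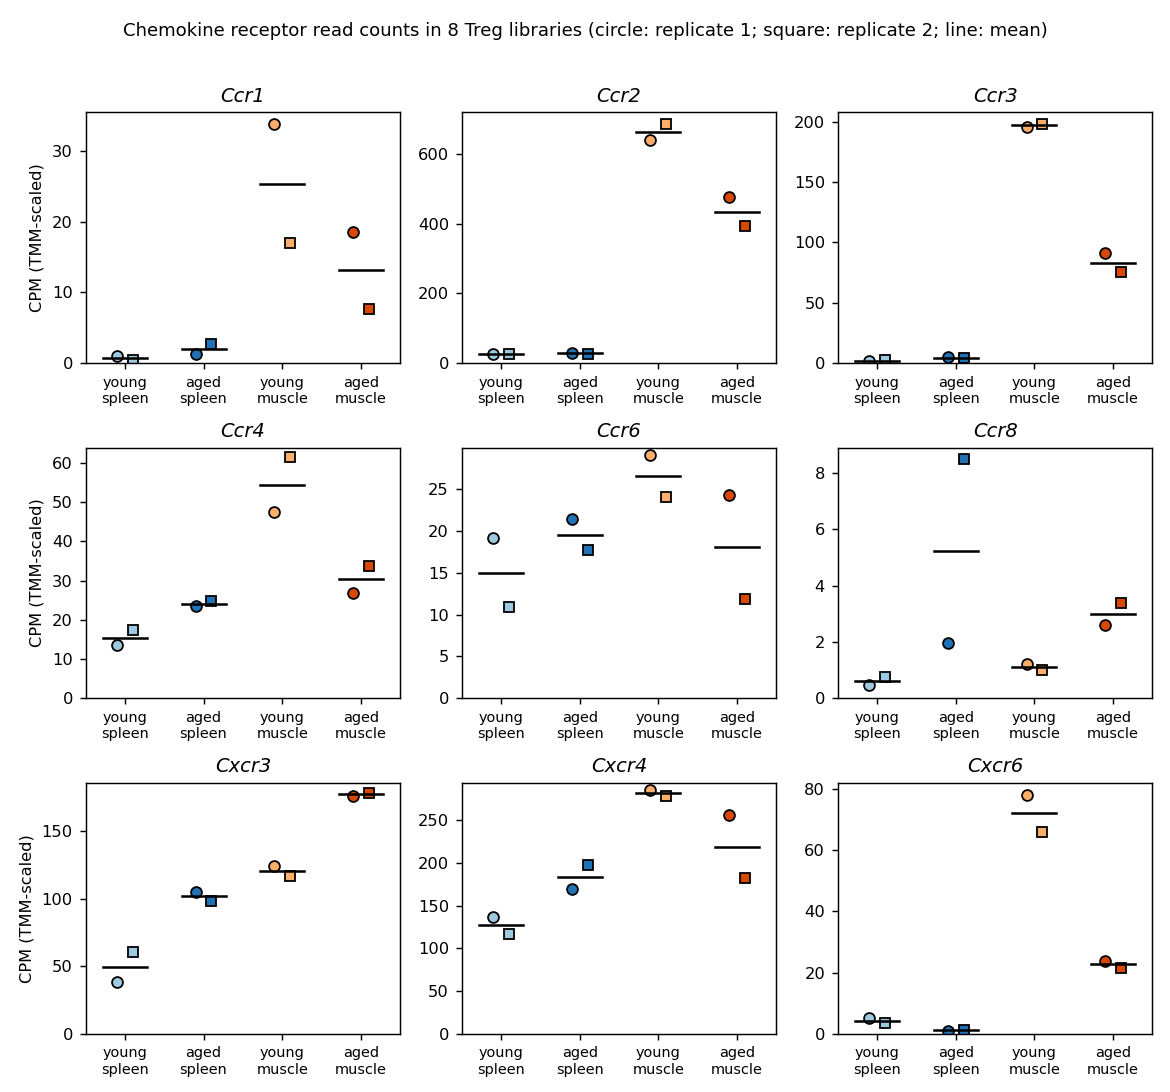
Read level of each of the 9 receptors in every library, as CPM scaled by the trimmed mean of M-values (TMM), on linear axes from 0. Circles are replicate 1, squares replicate 2 and lines the group means. Within each age, the muscle and spleen libraries do not overlap for Ccr1, Ccr2, Ccr3, Ccr4, Cxcr3 and Cxcr6. In young mice they do not overlap for any member. Within an age, libraries of the tissues did not overlap for 61.7% of all genes tested in young and 65.4% in aged mice. Cxcr3 is highest in aged muscle, at 176 and 178 CPM.

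Muscle was compared with spleen at each age. In young mice 7 members were higher in muscle, in aged mice 5 were higher, and 0 were lower at either age, whether by edgeR, by DESeq2 or before adjustment. Ccr3, Ccr2, Cxcr6 and Ccr1 differed most, Cxcr3 was higher at both ages, and Ccr4 and Cxcr4 passed the threshold in young mice alone. Over all 14772 genes tested, 22.3% were called in young and 18.8% in aged mice (edgeR adjusted p under 0.05), with 11.4% and 9.57% called higher in muscle and 10.9% and 9.27% lower. Libraries of the tissues did not overlap for 61.7% of genes in young and 65.4% in aged mice. Ccr1 and Cxcr6 reached the filter's level in 2 or more libraries in muscle alone, so a difference was built into their being tested. Markers of some other cells were also higher in muscle, and those of B cells were not. Of 7 tested B cell markers, 3 had positive differences in young mice and 2 in aged mice, where 2 were called lower. Neutrophil markers were mixed, with 5 of 7 positive in young and 3 of 7 in aged mice. For CD8 T and NK cell markers it was 3 of 6 in young and 6 of 6 in aged mice. In young mice all 16 tested myeloid markers had positive differences (median 3.12, 7 called higher), as had 6 of 7 stromal markers (median 3.6, 1 called higher and 1 lower). In aged mice 9 of the 16 myeloid markers were positive (median 0.43, 2 called higher and 1 lower) and 5 of the 7 stromal ones (median 1.57, 0 called by edgeR and 0 with an unadjusted p under 0.05, 0 by DESeq2). Several tested markers passed the filter through muscle alone, so a difference was built into their being tested. These included every tested stromal marker but Pecam1, and the myeloid markers Fcer1g, Emr1, Mrc1, Ms4a7, Ly6c2 and Aif1. The part of all these markers in the members' levels was not tested. In bulk libraries of sorted cells, more cells with a transcript and more transcript per cell cannot be told apart.

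Ccr2 is the receptor for Ccl2, Ccl7 and Ccl12 and is best known for bringing monocytes into inflamed tissue. It was read at 640 and 685 CPM in muscle of young mice and 476 and 392 CPM in that of aged mice, against 25.7 and 25.2 CPM in young and 29.4 and 26.5 CPM in aged spleen. All 4 muscle libraries lay far above all 4 spleen libraries, and the young muscle libraries lay above the aged ones. The log2 difference between muscle and spleen was 4.70 ± 0.19 in young mice (SE; edgeR adjusted p = 2.16e-09), a 26-fold level, and 3.95 ± 0.18 in aged mice (edgeR adjusted p = 6.38e-09). Without young muscle replicate 1 the young value was 4.75. The remaining young muscle library held 249 CPM of the 21 myeloid markers, more than any spleen library. The galectin gene Lgals3 alone gave 91.4 CPM of this sum (183 counts) and was at 6.45 to 18.6 CPM in spleen. Cd68 had 30 counts in that library and C1qa 0. Of the 6758 stretches of 50 bases in annotated Ccr2 transcripts, 1.91% also occur in other genes, and such reads may be split or dropped.

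Ccr3 is the eotaxin receptor, typical of eosinophils and also found on some T cells. It had only 4 and 6 counts in young spleen. These equal 1.87 and 2.32 CPM, and the aged spleen libraries stood at 4.66 and 4.41 CPM. In muscle it was at 196 and 198 CPM in young and 90.9 and 75.3 CPM in aged mice. The 4 groups did not overlap at any point of the order young muscle, aged muscle, aged spleen, young spleen. Muscle exceeded spleen by 6.51 ± 0.30 on the log2 scale in young mice (edgeR adjusted p = 3.53e-09; 6.52 without young muscle replicate 1) and by 4.18 ± 0.26 in aged mice (edgeR adjusted p = 8.05e-08). Markers of eosinophils, basophils and mast cells were higher in muscle too. The summed level of all 12 was 38.6 and 40.5 CPM in young muscle, 51.8 and 96.8 CPM in aged muscle and 7.36 to 19.1 CPM in spleen. Of these markers 5 were tested, and all 5 had positive muscle-to-spleen differences at both ages (median 1.90 in young and 2.47 in aged mice). Hdc, which makes histamine, was called higher in young mice (2.06 ± 0.93 CPM in spleen and 17.4 ± 6.2 CPM in muscle), and Siglec5, the older symbol in the table for the eosinophil lectin Siglecf, in aged mice (6.00 ± 0.16 and 33.5 ± 14 CPM). Hdc, Cpa3 and Mcpt8 passed the filter through muscle alone, so a difference was built into their being tested. The eosinophil granule genes Epx and Prg2 were at 0 in all 4 muscle libraries. The part of these cells in the Ccr3 level was not tested.

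Cxcr6, which binds the membrane-anchored chemokine Cxcl16 and is typical of T cells that stay in tissues, had 11 and 9 counts in spleen of young mice and 4 and 4 in that of aged mice. In CPM these were 5.14 and 3.49, then 0.981 and 1.36. In muscle it was at 78.1 and 65.9 CPM in young and 23.8 and 21.6 CPM in aged mice. Both tissues thus had the lower level in aged mice. Cxcr6 reached the filter's level in 4 muscle libraries and 1 spleen library, so a tissue difference was built into its being tested. The muscle-to-spleen difference was 4.06 ± 0.40 in young mice (edgeR adjusted p = 4.03e-06; 3.93 without young muscle replicate 1) and 4.25 ± 0.45 in aged mice (edgeR adjusted p = 1.74e-05), all on the log2 scale.

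Ccr1 binds Ccl3, Ccl5 and related chemokines and is abundant on monocytes and neutrophils. In muscle it had 84 and 34 counts at the young and 50 and 18 at the older age, against 2 and 1, then 5 and 8, in spleen. The summed counts gave a ratio of 41.4 between young muscle and young spleen (95% exact counting interval 13.8 to 204), and 7.28 between aged muscle and aged spleen (3.99 to 14.4). By edgeR both were called (adjusted p = 0.000558 and 0.0157), though Ccr1 reached the filter's level in muscle alone. The 11 neutrophil markers summed to 327 and 383 CPM in young muscle, 305 and 483 CPM in aged muscle and 143 to 303 CPM in spleen. In muscle most of these reads were of Cxcr2 and Mmp9. S100a8 had 60, 1, 0 and 3 counts in the muscle libraries and 13 to 163 in those of spleen. The part of neutrophils in the Ccr1 level was not tested. Ccr1 was at 33.8 CPM in young muscle replicate 1 and at 17.0 CPM in replicate 2, with the higher level in the library with more myeloid markers, whose part in its level was not tested. Without that library the young difference remained called, at a log2 difference of 4.63 (edgeR adjusted p = 0.00298). In aged mice the call was lost without either aged spleen library (2.26 without replicate 1, 3.37 without replicate 2) or without aged muscle replicate 1 (1.99).

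**Figure D2:**
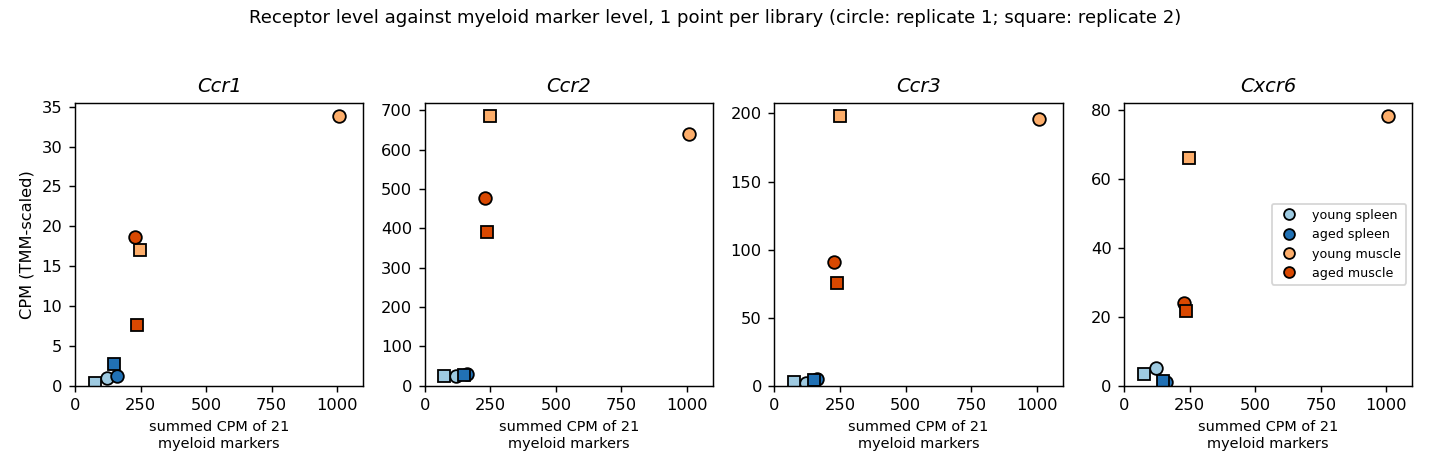
Level of 4 receptors against the summed level of 21 myeloid marker genes, both as CPM, with 1 point for each of the 8 libraries. Young muscle replicate 1, at 1008 CPM of markers, and replicate 2, at 249 CPM, have like levels of Ccr2 (640 and 685 CPM) and Ccr3 (196 and 198 CPM) but not of Ccr1 (33.8 and 17.0 CPM).

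The remaining members differed less between tissues. Cxcr3, the receptor for the interferon-induced chemokines Cxcl9, Cxcl10 and Cxcl11, was at 176 and 178 CPM in the aged and 124 and 117 CPM in the young muscle libraries, and 105 and 98.1 CPM in the aged and 38.3 and 60.4 CPM in the young spleen libraries. No 2 groups overlapped. It exceeded spleen by 1.28 ± 0.21 on the log2 scale in young mice (edgeR adjusted p = 0.000611) and by 0.80 ± 0.20 in aged mice (edgeR adjusted p = 0.0126). The aged call was lost without aged spleen replicate 1 (0.85, edgeR adjusted p = 0.0865) or replicate 2 (0.75, edgeR adjusted p = 0.123).

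Ccr4, a receptor for Ccl17 and Ccl22 found on Th2 cells and skin-homing Tregs, was at 47.5 and 61.4 CPM in muscle of young mice and 26.8 and 33.8 CPM in that of aged mice, against 13.6 and 17.4 CPM in young and 23.5 and 24.8 CPM in aged spleen. Its muscle-to-spleen difference was 1.80 ± 0.32 in young mice on the log2 scale (edgeR adjusted p = 0.000945) and 0.33 ± 0.30 in aged mice (edgeR adjusted p = 0.465). Cxcr4, the receptor for Cxcl12 that holds leukocytes in bone marrow, was at 256 and 183 CPM in the aged and 285 and 279 CPM in the young muscle libraries, and 169 and 198 CPM in the aged and 136 and 117 CPM in the young spleen libraries. The aged muscle and aged spleen libraries overlapped for Cxcr4, and the young ones did not. Its log2 difference was 1.15 ± 0.19 in young mice (edgeR adjusted p = 0.000472) and 0.26 ± 0.18 in aged mice (edgeR adjusted p = 0.327). For neither gene did the test of the difference between the ages pass (edgeR adjusted p = 0.105 and 0.0976).

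Ccr6, the Ccl20 receptor of Th17 cells, showed no tissue difference past the threshold. It was at 29.0 and 24.0 CPM in muscle of young mice and 24.2 and 11.8 CPM in that of aged mice, against 19.2 and 10.8 CPM in young and 21.3 and 17.6 CPM in aged spleen. Only the step from young muscle to aged spleen separated 2 neighbouring groups without overlap. The log2 difference between muscle and spleen was 0.83 ± 0.44 in young mice (edgeR adjusted p = 0.188) and -0.11 ± 0.43 in aged mice (edgeR adjusted p = 0.879).

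Ccr8, the receptor for Ccl1 and Ccl8 often used as a marker of tissue and tumour Tregs, was read too rarely to be tested. Its counts were 7 and 8 in the aged and 3 and 2 in the young muscle libraries, and 8 and 25 in the aged and 1 and 2 in the young spleen libraries. The highest library was an aged spleen one, and neither muscle group stood above aged spleen. The ratio of aged to young spleen was 7.39 (95% exact counting interval 2.32 to 37.7) and that of aged to young muscle 2.67 (0.921 to 9.38). Such intervals cover counting error and leave out the spread between the 2 aged spleen libraries. Fitted with all genes kept, Ccr8 passed the threshold in no comparison, the smallest edgeR adjusted p being 0.378, for age in spleen (unadjusted p = 0.0418 in the same edgeR fit).

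**Figure D3:**
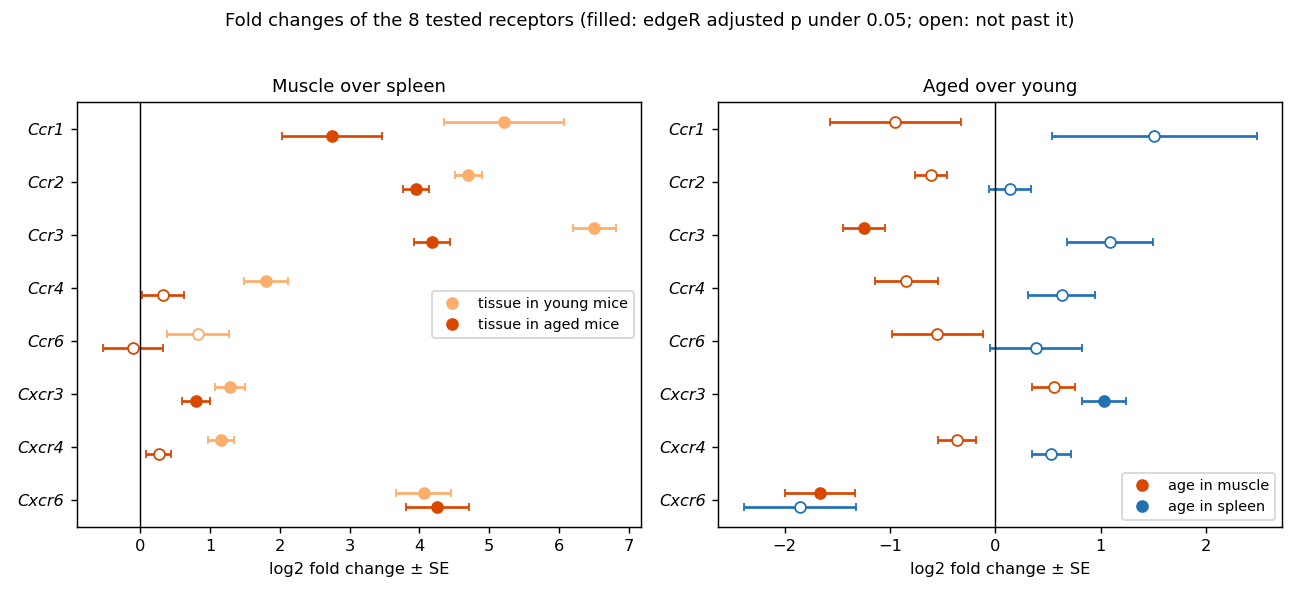
Log2 fold changes of the 8 tested receptors with their standard errors, for muscle over spleen at each age (left) and for aged over young in each tissue (right). Filled points passed an edgeR adjusted p of 0.05. All young tissue differences are above 0, from 0.83 for Ccr6 to 6.51 for Ccr3, and age effects in muscle are below 0 for every receptor but Cxcr3.

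Per kilobase of annotated exon, Cxcr4 had the highest mean read level of the members in young spleen (70.2 ± 7.5 CPM per kb), aged spleen (101 ± 11) and young muscle (156 ± 2.5). In spleen Cxcr3 came next, at 28.5 ± 9.0 CPM per kb in young and 58.7 ± 2.9 in aged mice. In aged muscle Cxcr4 (121 ± 29 CPM per kb) and Cxcr3 (102 ± 0.93) differed by less than the spread between the Cxcr4 libraries. In young muscle the next level was that of Ccr2, at 98.0 ± 4.7 CPM per kb, with Cxcr3 at 69.7 ± 3.0 and Ccr3 at 60.2 ± 0.41. Lowest were Ccr1 in young spleen (0.233 ± 0.14 CPM per kb), Cxcr6 in aged spleen (0.605 ± 0.14) and Ccr8 in both muscle groups (0.939 ± 0.13 and 2.55 ± 0.47). Reads from amplified RNA need not be spread evenly along a transcript, so levels per length are approximate.

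The comparison in the title of the series, of muscle Tregs from mice of 2 months and of more than 6 months, gave 2 changed members. Ccr3 and Cxcr6 fell and no member rose by edgeR or DESeq2 (1 was higher at an unadjusted p under 0.05), where 2.02% of all genes tested were called, 0.88% lower and 1.14% higher (edgeR adjusted p under 0.05). Of the 8 tested members, 7 had a negative log2 fold change, with a median of -0.73 against 0.03 over all genes. Cxcr3 was the exception. Of the myeloid markers, 15 of 16 were negative too, with a median of -1.43 and 2 called lower, and of the stromal markers 6 of 7, with a median of -2.01. The sum of all 21 myeloid markers was 1008 CPM in young muscle replicate 1, 249 CPM in replicate 2 and 228 and 237 CPM in aged muscle. For all 15 stromal markers it was 564 CPM in replicate 1, 258 CPM in replicate 2 and 188 and 225 CPM in aged muscle. Much of the difference in both sums thus lay in young muscle replicate 1. The part of these markers in the members' values was not tested. Young muscle libraries enter both this comparison and the young tissue one.

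Ccr3 fell from 197 ± 1.3 to 83.1 ± 11 CPM, its log2 fold change being -1.24 ± 0.20 (edgeR adjusted p = 0.00344). This call held whichever library was left out (edgeR adjusted p of 0.00644 to 0.0389), the value being -1.25 without young muscle replicate 1 (edgeR adjusted p = 0.0184). Cxcr6 fell from 72.0 ± 8.6 to 22.7 ± 1.6 CPM, its log2 fold change being -1.66 ± 0.33 (edgeR adjusted p = 0.0156). The Cxcr6 call was lost without young muscle replicate 1 (-1.54), aged muscle replicate 1 (-1.73) or aged muscle replicate 2 (-1.59), and fitting the muscle libraries alone ended both calls (edgeR adjusted p = 0.0694 for Ccr3 and 0.0728 for Cxcr6).

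Ccr2 was at 663 ± 32 CPM in young and 434 ± 60 CPM in aged muscle, a log2 fold change of -0.61 ± 0.15 that missed the threshold (edgeR adjusted p = 0.054). It passed with DESeq2 (adjusted p = 0.00859), with all genes kept (edgeR adjusted p = 0.0355) and without aged muscle replicate 1 (-0.75, edgeR adjusted p = 0.0288). It missed with only the muscle libraries fitted (edgeR adjusted p = 0.347) and in the other 7 fits that left out 1 library, among them those without young muscle replicate 1 (-0.66, edgeR adjusted p = 0.133) and aged muscle replicate 2 (-0.48, edgeR adjusted p = 0.258). Ccr4 differed by -0.84 ± 0.30 and Cxcr4 by -0.36 ± 0.18 (edgeR adjusted p = 0.187 and 0.36). Cxcr3 had a log2 fold change of 0.56 ± 0.20 (edgeR adjusted p = 0.194), and its aged libraries lay above its young ones. For Ccr1 (-0.95 ± 0.62) and Ccr6 (-0.55 ± 0.43) young and aged libraries overlapped. The Ccr1 value was -0.37 without young muscle replicate 1. Values of Cxcr4 and Ccr6 turned on the aged muscle libraries, at -0.62 and -1.15 without replicate 1 and -0.14 and -0.13 without replicate 2.

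In spleen 1 member changed with age. Cxcr3 rose with age and no member fell by edgeR or DESeq2 (1 was lower at an unadjusted p under 0.05), where 4.24% of all genes were called, 2.08% higher and 2.17% lower (edgeR adjusted p under 0.05). Of 8 log2 fold changes, 7 were positive, Cxcr6 being the exception, and the median was 0.58 against 0.05 over all genes. Other lists had positive medians as well. It was 0.45 over the other chemokine receptors (9 of 12 positive), 0.80 over the myeloid markers (13 of 16 positive) and 1.00 over the B cell markers (6 of 7 positive). Young and aged spleen libraries did not overlap for 52.7% of genes, and aged and young muscle libraries for 41.5%. Cxcr3 rose from 49.4 ± 16 to 102 ± 5.0 CPM, by 1.03 ± 0.21 on the log2 scale (edgeR adjusted p = 0.0111). This call was lost without young spleen replicate 1 (0.75, edgeR adjusted p = 0.208). It was also lost without either aged library (0.98 and 1.08, edgeR adjusted p = 0.142 and 0.088).

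None of the other spleen age effects passed. Cxcr6 was at 4.31 ± 1.2 CPM in young and 1.17 ± 0.27 CPM in aged spleen, with a log2 fold change of -1.86 ± 0.53 (edgeR adjusted p = 0.0643). Cxcr4 differed by 0.53 ± 0.19 (edgeR adjusted p = 0.138), and this passed under library-size scaling (0.70, edgeR adjusted p = 0.0217), which also moved the median of all genes from 0.05 to 0.21. Ccr3 had a log2 fold change of 1.09 ± 0.41 (edgeR adjusted p = 0.214) and Ccr4 one of 0.63 ± 0.32 (edgeR adjusted p = 0.339), and Ccr2 differed by 0.14 ± 0.20. Ccr1, with 3 counts in young and 13 in aged spleen, had a ratio of 2.91 (95% exact counting interval 0.8 to 15.9).

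Whether age acted differently in the 2 tissues was tested directly, as the log2 change in muscle minus that in spleen. Ccr3 was the one member past the threshold, at -2.33 ± 0.45 (edgeR adjusted p = 0.00978), where 2.52% of all genes were called. The same number is the amount by which its muscle-to-spleen difference was smaller in aged than in young mice. The call was lost without any 1 of the spleen libraries (-2.20 to -2.50, edgeR adjusted p of 0.0501 to 0.0841), Ccr3 having 4 to 19 counts in each of them, and it held without young muscle replicate 1 (-2.34, edgeR adjusted p = 0.0198). Ccr4 (-1.48 ± 0.44), Cxcr4 (-0.89 ± 0.26), Ccr2 (-0.75 ± 0.25) and Ccr1 (-2.46 ± 1.15) had negative values that did not pass (edgeR adjusted p of 0.105, 0.0976, 0.156 and 0.383). Cxcr6, with a negative age effect in both tissues, had a difference of 0.19 ± 0.53 (edgeR adjusted p = 0.943). Without young muscle replicate 1 the differences were -1.88 for Ccr1, -0.80 for Ccr2 and 0.32 for Cxcr6, none of them called by edgeR.

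Other receptors of the family give the setting of these values. Of 16 further chemokine receptor genes, 12 were tested, and 5 were higher and 2 lower in muscle at either age. Over all genes tested, 11.4% in young and 9.57% in aged mice were called higher in muscle, and 10.9% and 9.27% lower. The fractalkine receptor gene Cx3cr1 was at 82.2 ± 20 CPM in young spleen and 439 ± 24 CPM in young muscle (edgeR adjusted p = 3.84e-07). Ccr10, the receptor for Ccl27 and Ccl28, had 2 and 2 counts in young spleen and 92 and 91 in young muscle. Spleen libraries held at most 2 counts of Ccr10, so it passed the filter through muscle alone. Receptors of lymphoid tissue went the other way. The gene Ccr7, which guides naive cells to lymph nodes, was at 351 ± 50 CPM in young spleen and 42.4 ± 8.4 CPM in young muscle (edgeR adjusted p = 2.94e-07), and the follicle receptor gene Cxcr5 at 65.9 ± 3.9 and 4.15 ± 4.7 CPM (edgeR adjusted p = 0.00654).

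With age, Ccr7 fell in spleen by 1.25 ± 0.20 on the log2 scale (edgeR adjusted p = 0.00228). Ccr9, the gut-homing receptor for Ccl25, rose in aged muscle from 11.6 ± 2.7 to 42.5 ± 20 CPM (edgeR adjusted p = 0.0413), and its age effect was higher in muscle than in spleen by 3.07 ± 0.63 (edgeR adjusted p = 0.0144).

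The 9 genes of the chromosome 9 stretch did not move as 1 block. Cxcr6, Ccr1, Ccr3 and Ccr2 were all higher in muscle at both ages. Fyco1, within which Cxcr6 lies on the opposite strand without shared exon bases, was at 54.9 ± 8.9 CPM in young spleen and 27.2 ± 5.3 CPM in young muscle (log2 difference -1.01 ± 0.28, edgeR adjusted p = 0.02). Lztfl1 was at 12.5 ± 0.76 and 10.2 ± 0.33 CPM in these groups and Xcr1, a receptor typical of dendritic cells, at 3.61 ± 0.18 and 8.91 ± 5.8 CPM. The paralogue Ccr1l1 had no count in any library. This interval was chosen after the values were seen.

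**Figure D4:**
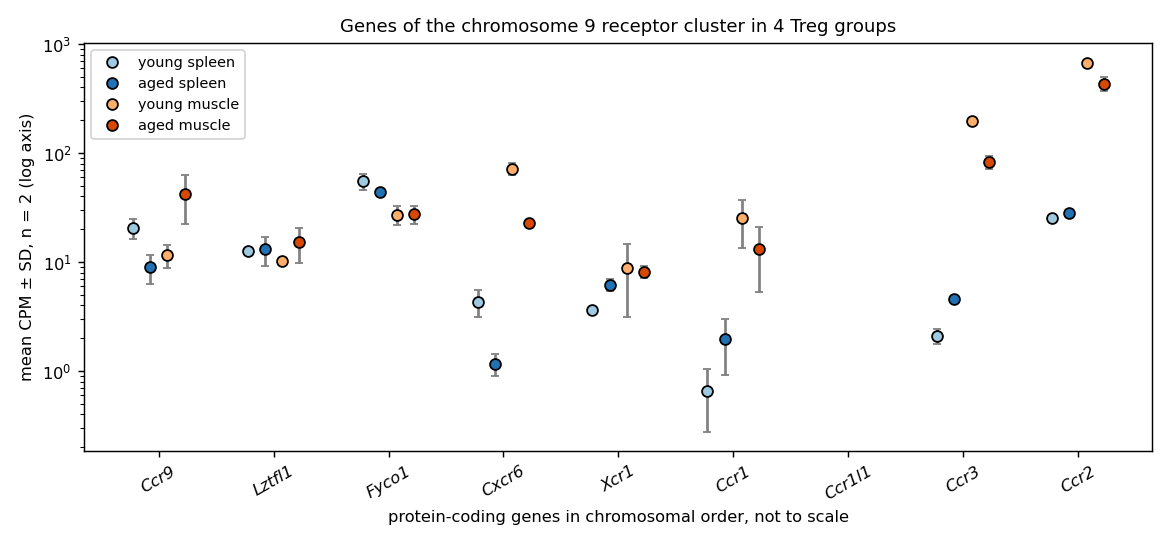
Mean read level of the protein-coding genes from Ccr9 to Ccr2 in their order along chromosome 9, as CPM on a log axis, with the SD of 2 libraries (bars that would reach 0 are cut short). Cxcr6, Ccr1, Ccr3 and Ccr2 are higher in muscle than in spleen, while Lztfl1 lies between 10.2 and 15.2 CPM in all groups and Ccr1l1 has no count.

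Of 24 chemokine genes that bind the members, 16 were tested, and in young mice 3 were higher in muscle by edgeR (6 by DESeq2, and 6 with unadjusted p-values under 0.05) and 0 were lower by any of these. The Cxcr3 ligand gene Cxcl10 was read in the Treg libraries themselves, at 64.2 ± 5.5 CPM in aged and 13.3 ± 0.49 CPM in young muscle, then 20.5 ± 1.6 CPM in aged and 2.22 ± 1.5 CPM in young spleen. It rose with age in muscle by 2.26 ± 0.37 (edgeR adjusted p = 0.0036) and in spleen by 3.23 ± 0.46 (edgeR adjusted p = 0.000775), both on the log2 scale. Its order of groups was that of Cxcr3 with young muscle and aged spleen exchanged. Ccl5, a ligand of Ccr1 and Ccr3 made by T cells, rose in both tissues too, from 82.2 ± 32 to 277 ± 17 CPM in muscle (edgeR adjusted p = 0.00369) and from 46.4 ± 12 to 175 ± 39 CPM in spleen (edgeR adjusted p = 0.0014).

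Ligands typical of macrophages were spread unevenly over the young muscle libraries. Ccl2, the main Ccr2 ligand, had 275 counts in young muscle replicate 1 and 5 in replicate 2, Ccl6 267 and 5, and Ccl7 58 and 1. Lyz2, the lysozyme gene of myeloid cells, had 288 and 24 counts. All 4 were higher in the library with more myeloid markers, whose part in the ligand values was not tested. Ligands of Ccr4 and Ccr6 were nearly unread. Ccl17 had at most 1 count, Ccl22 at most 2 and Ccl20 at most 2 in any library.

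Of 38 genes that transmit or dampen chemokine receptor signals, all tested, 6 were higher and 6 lower in muscle in young mice, 4 and 8 in aged mice. Rgs2 and Rgs10 encode proteins that switch off G protein signals, and they moved in opposite directions. Rgs2 was at 1484 ± 154 CPM in aged and 808 ± 0.21 CPM in young muscle, then 289 ± 23 CPM in aged and 238 ± 10 CPM in young spleen, and rose with age in muscle by 0.88 ± 0.14 on the log2 scale (edgeR adjusted p = 0.00378). Rgs10 was at 126 ± 25, 232 ± 13, 319 ± 6.0 and 379 ± 9.9 CPM in the same order of groups and fell with age in muscle by 0.88 ± 0.17 (edgeR adjusted p = 0.0113). No other gene of this list passed for age in muscle. Gnaq, which encodes a G protein subunit, rose in aged spleen by 0.99 ± 0.20 (edgeR adjusted p = 0.00918), where Pik3r5 and Rac1 fell.

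Transcription factors linked to receptor expression in T cells split between the tissues, with 8 of 20 higher and 4 lower in young muscle than in young spleen. Irf4, needed for effector Tregs, was at 66.5 ± 9.1 CPM in young spleen and 417 ± 39 CPM in young muscle (edgeR adjusted p = 1.05e-07), and Rora at 76.4 ± 17 and 345 ± 26 CPM (edgeR adjusted p = 7.53e-07). Bach2, which keeps T cells quiescent, was at 604 ± 25 and 66.3 ± 28 CPM (edgeR adjusted p = 6.13e-07). With age in muscle 0 of the 20 passed by edgeR, 7 had an unadjusted p under 0.05 and 2 were lower by DESeq2. Tbx21, which drives Cxcr3 in Th1 cells, was at 47.5 ± 15 CPM in young and 73.4 ± 18 CPM in aged muscle (log2 fold change 0.64 ± 0.28, edgeR adjusted p = 0.293). Gata3, the Th2 factor, was at 264 ± 0.33 and 326 ± 52 CPM.

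The genes most like each member over the 8 libraries were sought by Pearson correlation of log2 CPM among 7760 well-read genes. The points share library depth and the tissue contrast, so high values are common and carry no test. Ccr2 was followed most closely by Ndrg1 (r = 0.998), Emb and Dgat1 (both 0.996), and Ccr3 by Frmd5 (0.997), Gna15 and Glrx (both 0.995). Cxcr6 was closest to Mbd2 (0.997), with Aqp3 and Ppp1cc next (both 0.992), and Ccr1 to Per1 (0.987). For Cxcr3 the nearest gene was Stx11 (0.982), for Cxcr4 Fxyd5 (0.987), for Ccr4 Sdc4 (0.98) and for Ccr6 Tfip11 (0.961). Among the members themselves the closest pair was Ccr2 and Ccr3 (0.992).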

How the data were processed

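The authors deposited 1 table of raw read counts per gene symbol for 8 libraries of Tregs, amplified by in vitro transcription. No unique molecular identifiers are described, so counts are not independent molecules and intervals cover counting error only. The genome build mm10 and the tools HTSeq, TopHat, TopHat2, SAMtools 0.1.19 and Picard are listed in the submitters' processing notes. Which annotation and strand setting served for counting is not stated in the labels, so reads of overlapping genes may be mixed.

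Counts were tested with edgeR 4.0.16 in R 4.3.3 (quasi-likelihood, TMM scaling, filterByExpr, robust fit), using all 4 groups and 14772 genes, with Benjamini-Hochberg adjustment over those genes and a threshold of 0.05. CPM were computed on the counts in tested genes. Residual degrees of freedom were 4 and the common biological coefficient of variation was 0.288. The fit was tested on simulated data. DESeq2 1.42.0, no filter, library-size scaling, a replicate block, fitting only the groups compared and leaving out each library were the alternatives. Replicate numbers carry no shared source in the labels and did not pair the samples. A total of 3 counts over a group was the floor. All members are named, with up to 4 called genes a list and comparison (smallest p), list genes set beside a member's result, and up to 3 genes most like each member. Members and lists were chosen with earlier results of these data known. Gene positions are GENCODE M21 on GRCm38.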

Additional observations from a re-analysis of the deposited data

Results flagged for a closer look

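The age effect on Ccr3 differed between the tissues by a direct test, at -2.33 on the log2 scale (edgeR adjusted p = 0.00978). Ccr3 was lower in both aged muscle libraries than in both young ones, and higher in both aged spleen libraries than in both young ones. The difference missed the threshold without any 1 of the spleen libraries, where Ccr3 had 4 to 19 counts, so the spleen side rests on few reads.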

How the results depend on the processing

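Over the alternatives run, 110 of 128 counts of called members stayed within 1.5 times the reported count, and 481 member fold changes kept their direction and side of the threshold, 10 gained a call, 17 lost one and 4 reversed. Members lower with age in muscle went from 2 to 0 when only the muscle groups were fitted, and were 1 to 2 when 1 library was left out. Members higher with age in spleen went from 1 to 2 under library-size scaling and to 2 with only the spleen groups fitted (Cxcr4 in both), and were 0 to 2 when 1 library was left out. Members with a lower age effect in muscle than in spleen went from 1 to 2 with no filter and under library-size scaling (Cxcr4 in both), and were 0 to 2 when 1 library was left out. Members higher in muscle in aged mice were 3 to 5 when 1 library was left out. The reversals were in values far from the threshold: the Cxcr6 difference of age effects (-0.10 without young spleen replicate 1, -0.05 without aged spleen replicate 1; range -0.10 to 0.46) and the aged tissue difference of Ccr6 (0.04 without aged spleen replicate 1, 0.31 without aged muscle replicate 2; range -0.70 to 0.31). The cause was not tested. Library-size scaling moved the median of all genes from 0.05 to 0.21 for age in spleen, from 0.03 to 0.15 for age in muscle and from 0.07 to 0.18 for tissue in young mice. With a replicate block, 3 members were lower with age in muscle, Ccr2 being added (-0.62, edgeR adjusted p = 0.0306). The same-numbered libraries' deviations correlated between -0.0652 and 0.256. The difference of age effects was not run with only the groups compared, since it uses all 4. By DESeq2, 7 signalling genes were lower with age in spleen (2 by edgeR) and 4 with age in muscle (1 by edgeR). Ccr8, with 1 to 25 counts in a library, did not reach the filter and was fitted only with no filter.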

Other observations

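The make-up of chemokine receptor reads differed between the libraries. Of all counts in 25 chemokine receptor genes, the 9 members held 63.1% and 59.3% in muscle of young mice and 52.1% and 45.2% in that of aged mice. In spleen they held 25.4% and 28.5% at the young age and 39.5% and 42.1% at the older one. The share of Ccr2 was 28.2% and 28.1% in young muscle and 2.70% to 3.25% in spleen. The share of Ccr7 ran from 0.991% to 2.12% in muscle, and stood at 18.1% and 14.4% in aged and 40.6% and 37.7% in young spleen libraries. These are shares of reads, not of molecules per length, and they were looked at after the other values were known.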
